A study of Mus musculus with 6 samples.

Results

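The proliferin genes Prl2c2, Prl2c3 and Prl2c4 and the placental gene Plac1 were examined in mouse cutaneous squamous cell carcinomas from which the transcription factor gene p63 had been excised. They are the entries of the authors' deposited table of changes that are deposited as PRL2C2, PRL2C3, PRL2C4 and PLAC1, 4 of 16381 entries in that table. They had been picked for their rise in the p63-excised tumours, so the log2 change, level, t score and p-value of each member are given here as a description and not as a test. The tumours came from mice on a mixed C57BL/6 and CD1 background that were p53+/-, had both p63 alleles flanked by loxP sites (p63L/L) and carried K14-CreER, a tamoxifen-activated Cre recombinase driven by the keratin 14 promoter. DMBA, a chemical carcinogen, was given weekly until carcinomas formed, and cells of a primary tumour were then transplanted orthotopically into Nude mice, an immunodeficient strain. After 13 days of growth the recipients received tamoxifen (p63-excised, 3 tumours) or vehicle (p63-intact, 3 tumours) on 5 consecutive days, and tumours were taken 1 to 3 days after the last dose. Tamoxifen and excision therefore cannot be told apart, and Cre acts only in keratin 14-expressing cells while RNA was drawn from the whole tumour with its host stroma. The labels speak of one primary tumour and do not tie each graft to its own mouse. The p-values therefore reflect the spread among these 6 samples, part of which may be technical.

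Proliferins are secreted glycoproteins of the prolactin hormone family that mouse trophoblast giant cells, the large invasive cells at the edge of the placenta, release during pregnancy. They were first found as growth-induced transcripts of cultured mouse fibroblasts, bind the insulin-like growth factor 2 receptor (which is also the cation-independent mannose 6-phosphate receptor), and stimulate the migration of endothelial cells. Plac1 is an X-linked gene of the trophoblast whose secreted protein has a zona pellucida-like domain, and it is expressed again in a range of human tumours. In RefSeq's mouse gene annotation (GRCm38.p6), Prl2c4 is an older name of Prl2c3, so the 3 proliferin entries stand for 2 genes there, and these are near-identical copies whose probes may share signal.

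Bases before the annotated transcription start are shown for the proliferin gene Prl2c3 and for its paralog Prl2c5, which is not among the members. Their promoters are almost the same. The listed changes of the 2 genes differed in size, but that difference was not tested. The RefSeq sequences (GRCm38.p6) cover 250 bases each, at chr13:12800080-12800329 on the minus strand for Prl2c3 and at chr13:13182466-13182715 on the plus strand for Prl2c5. Capitals mark matches to the letters TGANTCA and to AGATAA, bound by GATA factors. In TGANTCA, N is any base, which makes it a loose form of the site bound by the AP-1 factors of the Fos and Jun families.
Prl2c3: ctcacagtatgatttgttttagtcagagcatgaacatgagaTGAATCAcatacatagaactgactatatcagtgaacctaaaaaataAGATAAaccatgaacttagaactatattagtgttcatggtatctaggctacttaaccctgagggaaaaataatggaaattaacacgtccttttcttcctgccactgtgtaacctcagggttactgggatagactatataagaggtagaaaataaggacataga
Prl2c5: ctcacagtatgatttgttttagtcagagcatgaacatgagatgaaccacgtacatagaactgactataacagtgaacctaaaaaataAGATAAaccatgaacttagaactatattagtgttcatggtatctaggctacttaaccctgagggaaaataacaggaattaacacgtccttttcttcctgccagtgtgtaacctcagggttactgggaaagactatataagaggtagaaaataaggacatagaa

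The 2 windows were identical at 241 of 251 aligned positions (96.0%), with 8 substitutions and 2 gap positions. Counted from 1 at the 5′ end of the Prl2c3 window, the first substitution from Prl2c3 to Prl2c5 was T46C, which lies within the AP-1 letters of Prl2c3. AP-1 and the glucocorticoid receptor are known to act together on a proliferin promoter in mouse cells, and GATA factors are known to act on it in trophoblast. The letters TGANTCA, searched on both strands, began 209 bases before the start of Prl2c3 and were not in the Prl2c5 window, and 6.75% of 32851 promoter windows of the same length held them. The letters AGATAA began 163 bases before the start in both Prl2c genes and were on the opposite strand in the window of one of 2 annotated Plac1 starts, against 9.99% of all windows. The letters TGTTCT, bound by the glucocorticoid receptor, and a second GATA form, TGATAA, had no match in the Prl2c3, Prl2c5 or Plac1 windows and were in 16.1% and 7.94% of all windows. The letters CATG, a common core of the sites bound by the p53 family, to which p63 belongs, occurred 4 times in each Prl2c window and in neither Plac1 window, and 53.9% of all windows held them. A match of letters is a description of the sequence, and the array data do not bear on binding. Whether any difference between the Prl2c3 and Prl2c5 windows bears on their listed changes was not tested. No window of the member Prl2c2 was available here.

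**Figure D1:**
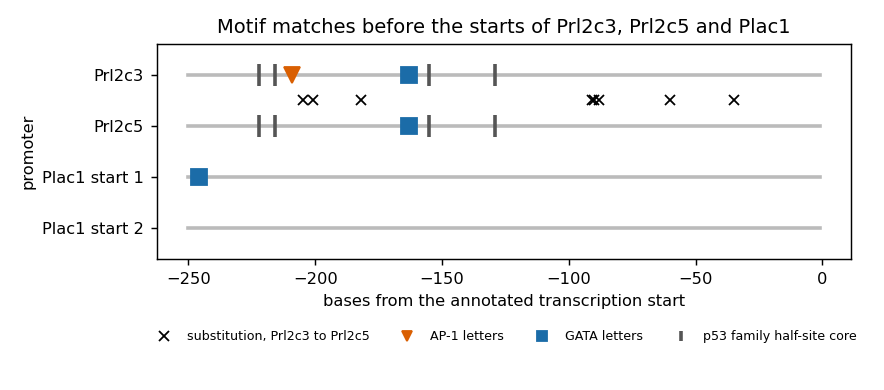
Positions of motif matches in the 250 bases before the annotated starts of Prl2c3, Prl2c5 and Plac1 (2 starts). The horizontal axis gives bases from the start; triangles mark AP-1 letters, squares GATA letters (AGATAA), ticks the core CATG, and crosses the 8 substitutions between Prl2c3 and Prl2c5. Only Prl2c3 among these 4 windows has the AP-1 letters.

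Expression was measured on Illumina bead arrays, on which labelled cRNA binds probes and gives an intensity per probe. Between 11964 and 14520 of 45281 probes were detected above background on p63-excised arrays and between 13757 and 16096 on p63-intact arrays. Array p63-excised 2 had the fewest detected probes and the highest median signal. Precision is limited by how few arrays there are. The epidermal keratin genes Krt14 and Krt5, which mark the basal keratinocytes that squamous carcinomas resemble, were listed at mean log2 levels of 14.02 and 11.65 by the authors' deposited table, with log2 changes of 0.12 and 0.27 (p = 0.296 and 0.212). Trp63 itself, the excised gene, was at -0.25 in log2 per the authors' deposited table (p = 0.0639, adjusted p = 0.751); whether its probe lies within the excised exons is not known here, and the value is therefore no check of the labels. Adjusted p-values are Benjamini-Hochberg values of the deposited p-values over all 45281 probes of the array, the largest number of tests there can have been, with a threshold of 0.05. No deposited file links a probe to a gene name, so no member has a value per array.

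All 3 proliferin entries were between 7.97-fold and 9.43-fold higher in p63-excised tumours per the authors' deposited table, and they held places 5, 6 and 7 among all listed entries in the order of log2 change. Prl2c3 had a log2 change of 3.24 (fold 9.43) at a mean log2 level of 11.33, with a t score of 16.95 and p = 9.6e-07 per the authors' deposited table. With 3 arrays in each group, that level and change correspond to group means of 12.95 in p63-excised and 9.71 in p63-intact tumours on the log2 scale. The standard error implied by change and t score was 0.19, and the 95% interval of the log2 change was 2.78 to 3.70. Prl2c3 thus gave a clear signal in p63-intact tumours as well: its p63-intact mean was far above 4.62, the lowest mean level of any entry listed in the authors' deposited table.

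Prl2c4 stood next to it, with a log2 change of 3.01 (fold 8.06), a t score of 13.79 and p = 3.68e-06 per the authors' deposited table. The corresponding group means were 12.37 in p63-excised and 9.36 in p63-intact tumours, and the 95% interval of the change was 2.49 to 3.53. Prl2c2 had a log2 change of 2.99 (fold 7.97), a t score of 11.38 and p = 1.27e-05 per the authors' deposited table. Its group means were 12.24 in p63-excised and 9.25 in p63-intact tumours, with a 95% interval of 2.36 to 3.62 for the change. The intervals of the 3 proliferin changes overlapped over most of their width, and the differences between them were not tested because their probes may read the same transcripts.

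Plac1 was 4.01-fold higher in p63-excised tumours, with a log2 change of 2.01, a t score of 9.74 and p = 3.41e-05 per the authors' deposited table, which put it at place 23 in the order of change. The corresponding group means were 6.98 in p63-excised and 4.97 in p63-intact tumours, and the 95% interval of the change was 1.52 to 2.5. The p63-intact mean of Plac1 lay beside the median mean level of all listed entries, 4.94, and a fold taken against so low a level can understate a change. Adjusted p-values were 0.0072 for Prl2c3, 0.00833 for Prl2c4, 0.0151 for Prl2c2 and 0.0224 for Plac1 per the authors' deposited table. All 4 were below 0.05, where 0.659% of listed entries were called higher, a share from which nothing is read since the members were chosen on this contrast. In whole tumours, more cells that transcribe these genes and more RNA per cell cannot be told apart.

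**Figure D2:**
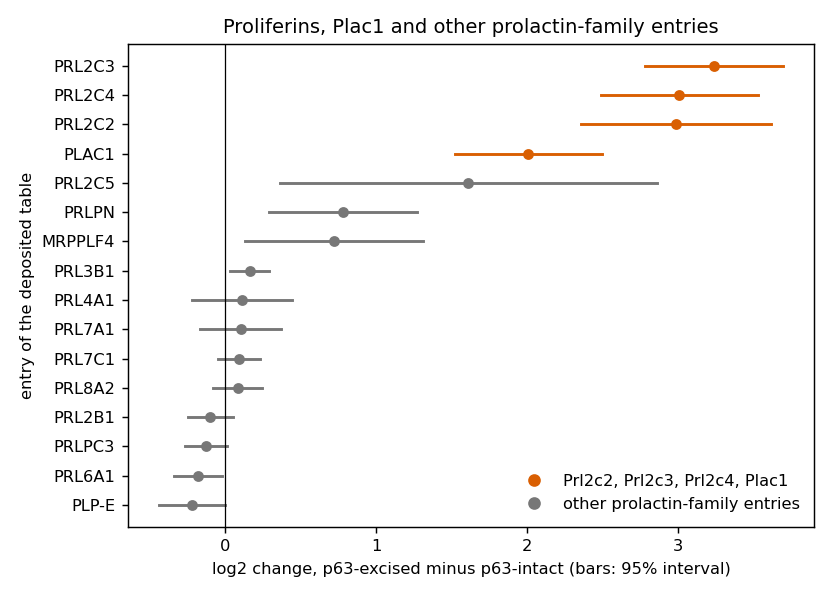
Log2 change between p63-excised and p63-intact tumours (horizontal axis) of Prl2c2, Prl2c3, Prl2c4 and Plac1 (orange) and of every other prolactin-family entry in the authors' deposited table (grey), named as deposited. Points are the deposited changes and bars their 95% intervals; the 3 proliferins lie between 2.99 and 3.24, Plac1 at 2.01 and the next family entry, PRL2C5, at 1.61 with a wide interval.

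The 3 entries above and below each member in the order of log2 change show what was listed beside them. Above Prl2c3 in the authors' deposited table were Krt19, a keratin of simple epithelia, at 3.84, Akr1c18, an aldo-keto reductase that inactivates progesterone, at 3.47, and Ltf, encoding the secreted iron-binding protein lactoferrin, at 3.41. Krt19 and Akr1c18 passed (adjusted p = 0.0072 and 0.0172, computed from the p-values of the authors' deposited table), and Ltf did not (adjusted p = 0.527). Below Prl2c2 in the authors' deposited table came Lcn2, which encodes the siderophore-binding lipocalin 2, at 2.91, Aldh3a1, an aldehyde dehydrogenase gene, at 2.76, and Krt15, a keratin of basal and follicle cells, at 2.76 (adjusted p = 0.243, 0.0553 and 0.00833). Around Plac1 in the authors' deposited table stood Dynap at 2.09, 2 entries of the kallikrein peptidase gene Klk9 at 2.06 and 1.99, Lrrc26, a potassium channel subunit gene, at 2.01, Padi1, a peptidylarginine deiminase gene, at 1.93 and Elf3, an epithelial ETS factor gene, at 1.92. Each of these 6 entries around Plac1 passed, with adjusted p-values from 0.00683 to 0.0435, computed from the p-values of the authors' deposited table. In all, 24 listed entries (0.147%) had a log2 change over 2, and 4 of these had a mean log2 level over 10: the 3 proliferins and Klk10, another kallikrein gene, at 2.15 per the authors' deposited table.

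**Figure D3:**
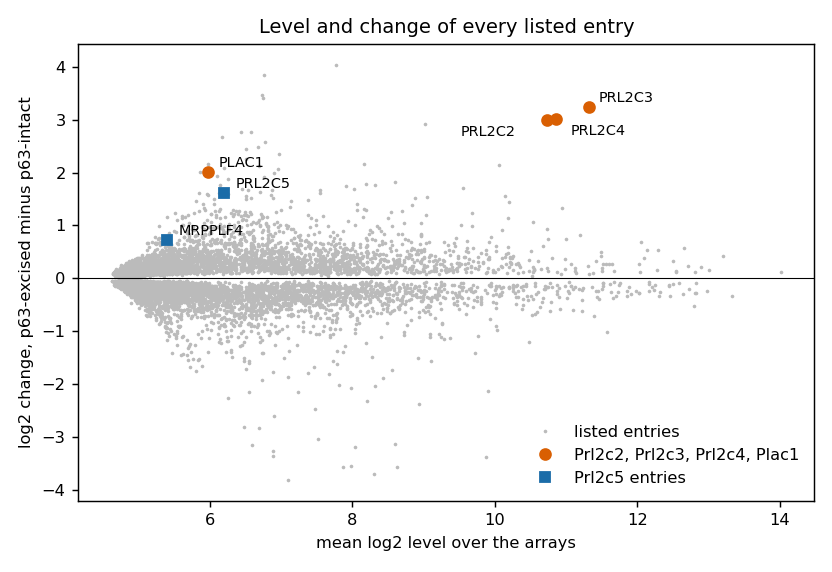
Mean log2 level over the arrays (horizontal axis) and log2 change of p63-excised over p63-intact tumours (vertical axis) for all 16381 entries of the authors' deposited table (grey). The proliferins (orange) lie at levels of 10.74 to 11.33 with changes near 3, while PLAC1 (orange) and both PRL2C5 entries (blue squares, PRL2C5 and MRPPLF4) lie at levels of 5.40 to 6.20.

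Values per array can be shown only for probes without a gene name. They were picked by a mean log2 intensity over 10 and a log2 rise over 2, limits set after the data were seen and with the level and change of the proliferins known. After background correction and quantile normalization, 376 of 13727 tested probes had a mean log2 intensity over 10. Of these, 3 rose by more than 2 in log2 and 0 fell by as much, against 32 of 13727 tested probes (0.233%) that rose by more than 2 at any level. Which genes these 3 probes read is not given in the files, and they are described as the probes whose level and change resemble those of the proliferins, not as proliferin probes.

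Probe ILMN_2875585 had log2 intensities of 13.17, 12.97 and 12.78 on p63-excised arrays 1, 2 and 3, against 9.95, 9.68 and 9.08 on p63-intact arrays 1, 2 and 3. Its lowest p63-excised array stood well above its highest p63-intact array. Probe ILMN_2996648 had 12.49, 12.35 and 12.26 on p63-excised arrays, against 9.72, 9.11 and 8.68 on p63-intact arrays. Probe ILMN_2617996 had 12.66, 12.49 and 12.71 on p63-excised arrays, against 10.35, 9.50 and 9.22 on p63-intact arrays. The groups did not overlap in these 3 probes, which is a description only, since they were picked by a large rise. How many of all tested probes had groups that did not overlap was not counted. In each of the 3 probes p63-intact array 1 was the highest and array 3 the lowest of its group, and the p63-excised arrays lay closer together. The SDs were 0.19, 0.11 and 0.12 among p63-excised arrays and 0.45, 0.52 and 0.59 among p63-intact arrays (n = 3 each). All 3 probes were detected on all 6 arrays. Log2 changes of the probes were 3.40 ± 0.24, 3.20 ± 0.25 and 2.93 ± 0.27 (SE from limma), which are descriptions because the probes were picked by their change. Of all tested probes 604 (4.4%) passed limma's test with Benjamini-Hochberg adjustment at 0.05.

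**Figure D4:**
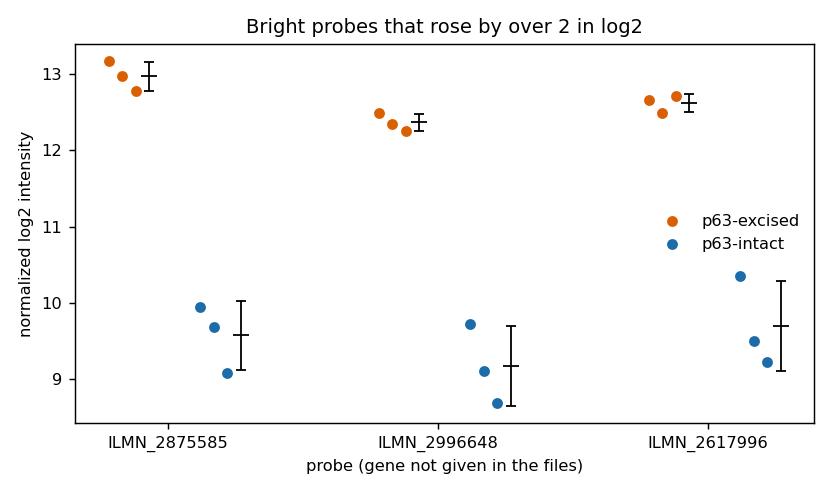
Normalized log2 intensity (vertical axis) of the 3 probes with a mean over 10 that rose by more than 2, on each p63-excised array (orange, left of each pair) and p63-intact array (blue); black marks are the mean and SD of 3 arrays. All p63-excised values lie between 12.26 and 13.17 and all p63-intact values between 8.68 and 10.35. The files do not say which genes these probes read.

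Prl2c5, the remaining proliferin copy of the locus, had 2 entries in the authors' deposited table, and neither passed. The entry PRL2C5 had a log2 change of 1.61 per the authors' deposited table (p = 0.0191, adjusted p = 0.469), with a 95% interval of 0.36 to 2.86. Its implied group means were 7.01 in p63-excised and 5.40 in p63-intact tumours. The entry under its older name, MRPPLF4, was at 0.72 per the authors' deposited table (p = 0.0235, adjusted p = 0.51), with an interval of 0.13 to 1.31. The 95% interval of PRL2C5 overlapped the lower end of that of PRL2C3 (2.78 to 3.70), and the interval of MRPPLF4 lay wholly below it. The implied p63-intact means of PRL2C5 and MRPPLF4, 5.40 and 5.04, lay not far above 4.94, the median mean level of all listed entries. A change taken from so low a level can be understated. The difference between Prl2c5 and Prl2c3 was not tested.

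Outside the Prl2c genes, the listed prolactin-family entries had mean log2 levels of 4.76 to 5.23 per the authors' deposited table, close to its lowest level of 4.62. The family has 27 genes in the list used here, of which 13 were listed with 15 entries; the other 14 were not analysed here. Without the 3 proliferin members, 8 of 12 entries had positive and 4 negative changes with a median of 0.10, against a median of 0.05 over all listed entries of the authors' deposited table. None of the 12 passed, while 4 were higher and 1 lower at an unadjusted p under 0.05, where 9.31% of listed entries were higher and 10.6% lower. The deposited table lists no p-value over 0.462. Its shares may thus lie above those of the whole array, and a gene that was not listed may have had a larger p-value. The 12 include both Prl2c5 entries, PRL2C5 and MRPPLF4, and these were among the 4 that were higher. The entry that was lower was Prl6a1, at -0.18 and a mean log2 level of 4.84 per the authors' deposited table (p = 0.0343, adjusted p = 0.601). Prl7b1, a family member of the placenta deposited as PRLPN, was at 0.78 per the authors' deposited table (p = 0.00729, adjusted p = 0.302) at a mean log2 level of 5.23. Prl3b1, which encodes placental lactogen of late pregnancy, was at 0.16 at a mean log2 level of 4.8 per the authors' deposited table (p = 0.0233, adjusted p = 0.508).

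Receptors and signalling genes of the family gave no call. Of 9 listed entries from 8 of 11 genes, 2 were positive and 7 negative, with a median of -0.19 per the authors' deposited table, and 1 was higher and 2 lower at an unadjusted p under 0.05. Igf2r, the receptor gene of proliferins, was at 0.27 per the authors' deposited table (p = 0.0378, adjusted p = 0.624). Socs3 and Socs2, feedback inhibitors of cytokine and prolactin receptors, were at -0.38 and -0.31 per the authors' deposited table, with adjusted p-values of 0.468 and 0.598. A second Socs2 entry under an older name, CISH2, was at 0.12 per the authors' deposited table (p = 0.142). Ghr, the growth hormone receptor gene, was at -0.20 per the authors' deposited table (adjusted p = 0.891). Prlr, the prolactin receptor gene, was not analysed here.

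Genes of the AP-1 factors, which are known to act on the proliferin promoter, did not pass either. Among 5 listed of 10 AP-1, GATA and glucocorticoid receptor genes, the median log2 change was 0.12 per the authors' deposited table, and 2 were higher and 0 lower at an unadjusted p under 0.05. Jund, an AP-1 subunit gene, was at 1.5 (p = 0.000881, adjusted p = 0.104) and Fosl2, another subunit gene, at 0.52 (adjusted p = 0.521) per the authors' deposited table. Fos was at -0.67 and Junb at 0.12 per the authors' deposited table (p = 0.238 and 0.295). With the 16381 listed entries taken as all tests, which called 2.97% of them, Jund alone of these 5 passed.

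The placental genes beyond the members did not move one way. Of 59 genes of trophoblast and placenta, 34 were listed, 17 positive and 17 negative, with a median of 0.01 per the authors' deposited table. None passed. At an unadjusted p under 0.05, 5 of the 34 were higher and 2 lower, against 9.31% and 10.6% of all listed entries. Tfap2c, a trophoblast and epidermal transcription factor gene, was at -0.52, Dlx3, a homeobox gene of placenta and epidermis, at 0.71, Hand1, needed for trophoblast giant cells, at 0.35, and Flt1, a VEGF receptor gene, at -0.47 per the authors' deposited table (adjusted p = 0.16, 0.174, 0.414 and 0.471). Of 14 defining trophoblast markers 7 were listed, at mean log2 levels of 4.8 to 6.07 per the authors' deposited table; the highest of these was Psg23, a pregnancy-specific glycoprotein gene, at a log2 change of -0.41, and the others had levels of 5.18 or less. Among those others, Psg21, of the same glycoprotein family, was at 0.23 and Cdx2, a transcription factor gene of early trophoblast, at 0.11 per the authors' deposited table (p = 0.0517 and 0.109).

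Plac1 has been tied in human cells to FGF7 and its receptor, the epithelial form of FGFR2. Of 10 genes of this list 4 were listed, and Fgfr2 fell (0.501% of listed entries were called lower), with a log2 change of -1.0 per the authors' deposited table (adjusted p = 0.0281), in the contrast in which Plac1 was higher. Fgf7, the ligand gene, was at -0.30 per the authors' deposited table (p = 0.0388, adjusted p = 0.631). Zp1, a zona pellucida gene, was at -0.09 and Oosp3, a relative of Plac1, at 0.07 per the authors' deposited table (p = 0.417 and 0.333).

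The genes lying beside the members were examined in the order of the RefSeq gene table. Of 20 genes around Prl2c3, Prl2c2 and Prl2c5, most of them pseudogenes, 2 were listed: Gpr137b-ps at 0.90 and Ero1b, encoding an endoplasmic reticulum oxidase, at -0.21 per the authors' deposited table (adjusted p = 0.405 and 0.888). Of 10 genes around Plac1, 4 were listed and none passed. C430049B03Rik, the noncoding host of Mir322, Mir503 and Mir351, was at 0.45 per the authors' deposited table (p = 0.000697, adjusted p = 0.0926). On the other side of Plac1, Fam122b, Fam122c and Mospd1 were at -0.10, -0.19 and -0.15 per the authors' deposited table (p = 0.256, 0.0717 and 0.434).

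Markers of host cells that could bring these transcripts into a whole tumour were taken from the same table. Fibroblast markers had 1 of 4 listed entries positive with a median of -0.49 per the authors' deposited table. Of these, Lum and Dcn, which encode matrix proteoglycans, were at -0.70 and -0.90, the collagen gene Col3a1 at -0.29 and the receptor gene Pdgfrb at 0.24 per the authors' deposited table (adjusted p = 0.721, 0.884, 1.0 and 1.0). Endothelial markers had 2 of 4 positive with a median of -0.13: the junction genes Cldn5 and Cdh5 were at -0.43 and 0.28, Emcn at -0.42 and the von Willebrand factor gene Vwf at 0.16 per the authors' deposited table (p = 0.0361, 0.225, 0.134 and 0.332). Macrophage markers had 2 of 5 entries positive with a median of -0.27. The lysozyme gene Lyz2 had 2 of these entries, LYZ2 at -1.73 and LYZS at -0.31 per the authors' deposited table (p = 0.00627 and 0.267, adjusted p = 0.281 and 1.0). Adgre1, which encodes a macrophage surface receptor, was at -0.27, while Cd14 and Cd68 were at 0.42 and 0.47 per the authors' deposited table (p = 0.0319, 0.138 and 0.284). No fibroblast, endothelial or macrophage entry passed, and their directions were mixed within each list. Skeletal muscle markers were positive for 7 of 7 with a median of 0.26 and none past the threshold. Des, the muscle filament gene, was at 1.4, Acta1, a muscle actin gene, at 1.6, the creatine kinase gene Ckm at 0.34 and the myosin gene Myh1 at 0.10 per the authors' deposited table (adjusted p = 0.105, 0.528, 0.607 and 1.0). Keratinocyte markers were positive for 4 of 5 with a median of 0.27. Besides Krt5 and Krt14, the differentiation keratin genes Krt10 and Krt1 were at 1.70 and 0.49 and the junction gene Perp at -0.10 per the authors' deposited table (p = 0.0788, 0.0926 and 0.255). The part of any of these cell types in the change of the proliferins and Plac1 was not tested.

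**Figure D5:**
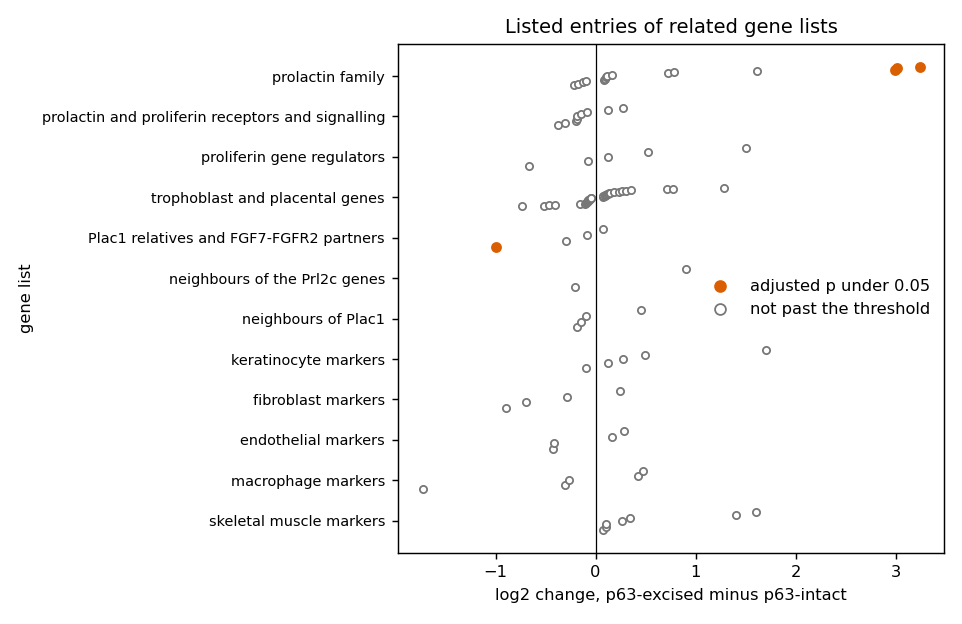
Log2 change between p63-excised and p63-intact tumours (horizontal axis) of each listed entry of 12 gene lists, one row per list; the height of a point within its row only keeps points apart. Filled orange points passed an adjusted p of 0.05 and open points did not; beside the 3 proliferins at the right of the prolactin family row, only Fgfr2 at -1.0 passed.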

How the data were processed

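Whole-tumour RNA of 6 samples was labelled and read on Illumina bead arrays. Per the file headers, the authors deposited an intensity and a detection p-value for every probe on every array. All arrays share 1 mean intensity, so the deposited intensities are not raw. The authors also deposited a table of log2 values per probe. The authors' deposited table of changes holds, per gene name, a log2 change, its signed fold, a mean log2 level, an unadjusted p-value and 2 scores (t and log-odds), per the file headers. It lists entries with deposited p-values up to 0.462, and its normalization is not stated in the labels or headers. R 2.12.0 is named by the submitters' processing notes.

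The members and lists were chosen with earlier results of these data known. Member and list values come from the deposited table. Its p-values were Benjamini-Hochberg adjusted, taking all 45281 probes as tests. Standard errors are change over t score, and 95% intervals use the 6.69 degrees of freedom that t scores and p-values imply. Current symbols came from RefSeq (GRCm38.p6); entries under older names that belong to 1 gene were added. Named are the members, Trp63, list genes past the threshold or among the 4 smallest p of their list, and the 3 entries above and below each member. Klk10, Krt14, Psg23, Prl2c5 and Prl6a1 fall outside this rule and were chosen after their values were seen.

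Probes were normalized with limma's neqc (offset 16), kept if detected at p under 0.05 on at least 3 arrays, and tested with lmFit and eBayes (R 4.3.3, limma 3.58.1), a step tested on simulated data. The limits that picked the 3 bright probes (mean over 10, log2 rise over 2) were set after the data were seen. Python 3.11.15, pandas 2.3.3 and Biopython 1.88 were used for tables and the promoter alignment. Alternatives were other background corrections, normalizations and filters, the value table, the replicate block and leaving out each array.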

Additional observations from a re-analysis of the deposited data

How the results depend on the processing

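The 4 members passed with either number of tests, which is a description only, since they were chosen for their rise in this contrast. Taking the 16381 listed entries as all tests raised the other list genes past the threshold to 4, against 1 with 45281 tests: Jund, C430049B03Rik and Des joined Fgfr2. The log2 changes of the members could not be recomputed, because no file links probes to gene names. The 3 bright probes rose under every alternative run, by 3.07 to 3.6, 2.85 to 3.47 and 2.61 to 3.26 in log2 for ILMN_2875585, ILMN_2996648 and ILMN_2617996. These ranges are descriptions, since the probes were picked by their rise. The other filters on dim probes and the replicate block could not alter the change of a probe.

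Over all probes, 604 of 13727 passed (4.4%), 319 higher and 285 lower in p63-excised tumours. Scaling to a common median left 50 probes (14 higher, 36 lower), and the median log2 change of all tested probes was then -0.22, against -0.03. There were 396 with normexp at an offset of 50, 344 without background correction, 203 without a filter on dim probes, 433 over probes detected on all arrays and 380 in the value table. Leaving out 1 array gave 186 (without p63-intact 3) to 631 (without p63-excised 2), with 301 and 224 without p63-intact 1 and 2, and 328 and 233 without p63-excised 1 and 3. The replicate block gave 1324, but deviations of equal-numbered arrays correlated at 0.339, 0.383 and -0.0635, and arrays of number 3 matched other numbers better, so the numbers were not taken as pairs. The causes of these shifts were not tested.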
